A study of Mus musculus with 6 samples.

Results

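The genes described here are 10 genes of brain endothelial cells and of the blood-brain barrier, taken by symbol from the 19251 genes of the series' count table. All 10 were found in the table, and all 10 passed the filter on low counts, which left 19109 genes to test. By role they were 3 barrier transporters (Mfsd2a, Slc7a5 and Slc2a1), 3 vessel receptors (Tek, Kdr and Flt1) and 4 junction and adhesion genes (Cdh5, Cldn5, Pecam1 and Ocln). The libraries held RNA of the substantia nigra of C57BL/6 mice that all carried rAAV-A53T-aSynuclein, a recombinant adeno-associated virus named for the A53T form of alpha-synuclein, so a diet effect without the virus is not part of the comparison. One group of 3 libraries came from mice fed ad libitum and the other 3 from mice on intermittent fasting, with food withheld for 24 hours on 3 days of each week, starting 2 weeks after surgery and lasting 10 weeks. The labels give neither the promoter of the virus, nor the age or sex of the mice, nor how long after the last fast the tissue was taken. They do not tie each library to its own mouse either, so the p-values speak of the spread between these libraries.

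Endothelial cells of brain capillaries form the blood-brain barrier. Tight junction proteins seal the gaps between neighbouring cells, so nutrients must cross through carriers in the cell membrane: glucose through the carrier made from Slc2a1, large neutral amino acids through that made from Slc7a5, and lysophospholipids carrying docosahexaenoic acid through that made from Mfsd2a. The receptors Kdr and Flt1 bind vascular endothelial growth factors, and Tek binds angiopoietins, and these signals set the growth and stability of vessels. Some of the 10 genes are not restricted to endothelium: Slc2a1 is also made by astrocytes, Slc7a5 by neurons and other cells, and Pecam1 by blood cells.

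Promoter sequences are shown for genes from both sides of the comparison, because the transporters and the receptors differed in opposite directions. RefSeq promoters (build GRCm38.p6, another build than the GRCm39 of the counts) were found for 7 of the 10 genes; Cdh5, Pecam1 and Slc7a5 were not matched. Each line gives the 250 bases before the transcription start, 5′ to 3′ on the gene's strand, for Mfsd2a (minus strand, chr4:122961189-122961438), Slc2a1 (plus strand, chr4:119108495-119108744), Tek (plus strand, chr4:94739039-94739288) and Kdr (minus strand, chr5:75978456-75978705). Capitals mark ACGTG, a form of the core that hypoxia-inducible factors bind. The core's other form, GCGTG, was neither searched nor marked.
Mfsd2a: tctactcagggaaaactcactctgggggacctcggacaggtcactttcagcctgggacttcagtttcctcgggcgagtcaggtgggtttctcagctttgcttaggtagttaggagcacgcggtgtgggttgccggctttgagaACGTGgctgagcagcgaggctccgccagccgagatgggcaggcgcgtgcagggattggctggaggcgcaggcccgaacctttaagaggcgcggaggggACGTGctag
Slc2a1: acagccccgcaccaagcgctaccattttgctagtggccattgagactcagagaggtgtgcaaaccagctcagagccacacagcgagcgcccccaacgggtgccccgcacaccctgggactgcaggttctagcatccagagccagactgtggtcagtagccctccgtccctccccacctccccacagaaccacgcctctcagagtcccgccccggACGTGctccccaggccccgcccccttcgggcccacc
Tek: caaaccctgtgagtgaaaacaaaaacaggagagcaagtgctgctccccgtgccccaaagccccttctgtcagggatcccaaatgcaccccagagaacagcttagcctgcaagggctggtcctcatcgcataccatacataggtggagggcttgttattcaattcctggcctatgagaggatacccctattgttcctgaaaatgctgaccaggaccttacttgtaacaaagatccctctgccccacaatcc
Kdr: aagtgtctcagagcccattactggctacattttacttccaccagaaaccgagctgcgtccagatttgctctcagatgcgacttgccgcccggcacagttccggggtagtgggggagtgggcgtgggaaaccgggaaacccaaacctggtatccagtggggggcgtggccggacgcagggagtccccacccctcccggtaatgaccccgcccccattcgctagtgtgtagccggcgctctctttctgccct
The form ACGTG, searched on both strands, began 107 and 9 bases before the start in Mfsd2a and 36 bases before it in Slc2a1. It occurred in none of the other 6 member promoters (Ocln has 2). GCGTG can be read in the Mfsd2a and Kdr lines above, so the ACGTG matches do not show which promoters lack a core. Of all 32851 promoters in the table, 16.6% held ACGTG within the same 250 bases. The longer E-box CACGTG, which contains ACGTG, was in 0 of the 8 member promoters and in 6.02% of all. The GC box GGGCGGG, which transcription factors of the Sp family bind, was in 5 of the 8, namely those of Slc2a1, Kdr and Flt1 and both of Ocln, against 23.4% of all promoters. The CCAAT box CCAAT and the TATA box TATAAA were also searched. They were in 3 and 1 of the 8, against 33.8% and 12.4% of all promoters. These motifs were chosen after the sequences were seen, and a match is only a run of letters.

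Ad libitum libraries differed from one another more than fasting libraries did, with a chi-square per degree of freedom over genes of 43.5 to 78.8 within the ad libitum group and 8.28 to 19.9 within the fasting group. Ad libitum replicate 1 was nearer to the fasting libraries, at 29.3 to 31.5, than to its own group, and ad libitum replicate 3 was nearer to fasting replicate 2, at 30.8, than to either ad libitum library, at 43.5 and 46.2. Total estimated counts ran from 42990234 to 48179706 per library, and the member with the fewest reads, Ocln, still had 347 to 479 counts in each. For Ocln the counting error that these counts allow was 4.57% to 5.37% of its level, against a coefficient of variation between libraries of 9.48% ad libitum and 12.1% under fasting. The members are measured from sequence that is nearly all their own: at most 2.11% of the 31-base words in a member's transcripts (Pecam1) also occurred in other genes. In GENCODE M21, genes on the opposite strand overlap Cdh5, Slc2a1 and Slc7a5, and the labels do not say whether counting took the strand into account.

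The comparison asked how the barrier and vessel genes of the substantia nigra stood under intermittent fasting. The carriers for lipid and amino acids rose: Mfsd2a was 1.79-fold and Slc7a5 1.30-fold higher under fasting. The receptors Tek and Kdr and the junction gene Cdh5 were 1.46-fold, 1.41-fold and 1.36-fold lower, with no overlap between diets, but did not pass edgeR's threshold over all genes. Flt1, Cldn5, Pecam1 and Ocln overlapped between diets. In bulk tissue, fewer endothelial cells and less RNA of a gene per cell cannot be told apart. Of the 10 members edgeR called 2, both higher, at an adjusted p below 0.05; over all genes tested 0.497% were called, 0.147% higher and 0.351% lower. DESeq2 called 3 higher and 3 lower, where it called 2.90% and 4.51% of all genes. Levels are given as CPM, a gene's counts scaled to the library's total after TMM adjustment between libraries.

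**Figure D1:**
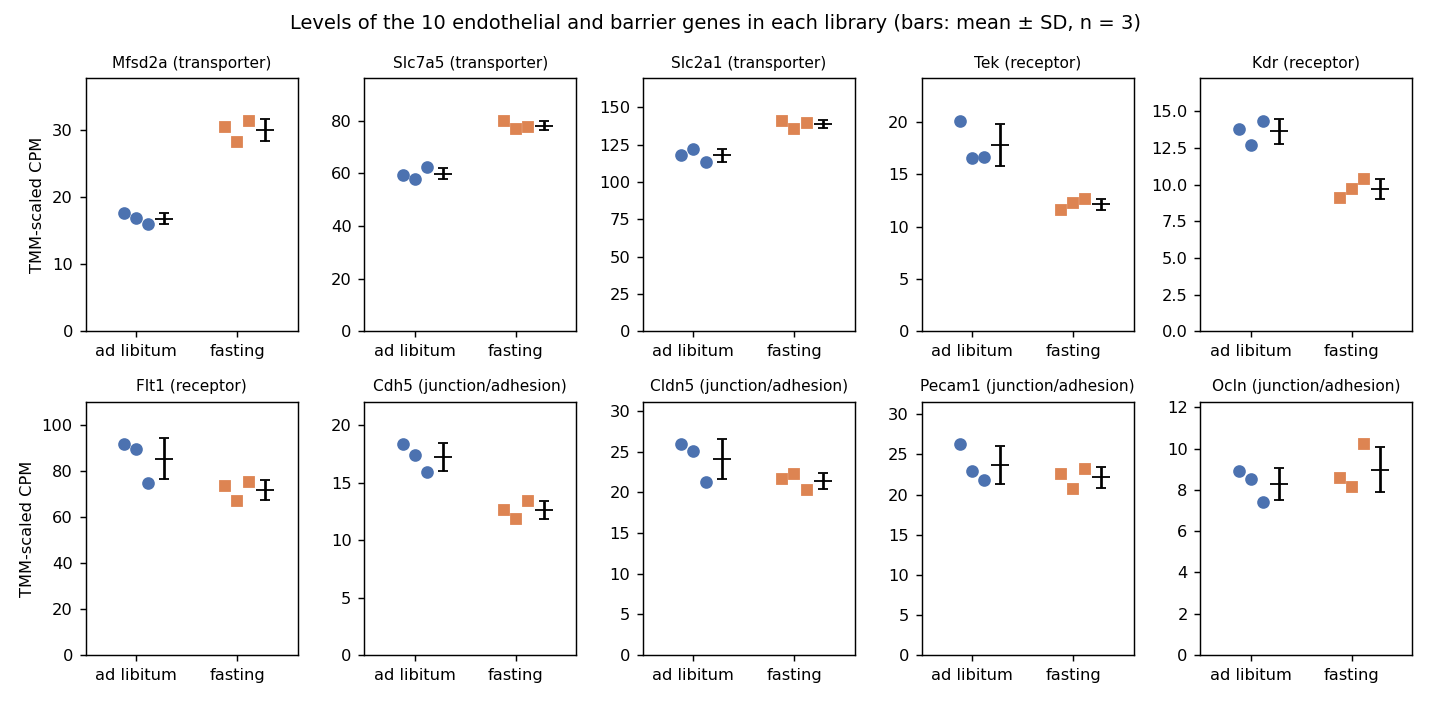
Level of each of the 10 genes in each library, in CPM, the counts of a gene scaled to the library's TMM-adjusted total, on linear axes that start at 0; circles are ad libitum libraries, squares fasting libraries, and bars the mean ± SD (n = 3). The transporters in the top row lie higher under fasting with no overlap, Tek, Kdr and Cdh5 lie lower with no overlap, and the remaining 4 genes overlap.

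Among the transporters, Mfsd2a (ENSMUSG00000028655) moved furthest. Its level was 17.7, 16.9 and 15.9 CPM in ad libitum replicates 1, 2 and 3, and 30.5, 28.2 and 31.4 CPM in fasting replicates 1, 2 and 3. The highest ad libitum library was thus far below the lowest fasting library. The mean, 16.8 ± 0.878 CPM ad libitum (SD, n = 3), rose to 30.0 ± 1.68 CPM. On the log2 scale the difference was 0.84 (SE 0.07, 95% interval 0.67 to 1.003, edgeR adjusted p = 0.0258). Of all genes tested, 97.5% had a lower log2 fold change. The call was lost without ad libitum replicate 3, fasting replicate 1 or fasting replicate 3 (edgeR adjusted p = 0.0939, 0.200 and 0.287), while the log2 fold change stayed between 0.80 and 0.88 whichever library was left out.

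Slc7a5 (ENSMUSG00000040010) encodes LAT1, the light chain of a carrier for leucine, phenylalanine, tryptophan, thyroid hormones and the drug L-DOPA. It measured 59.6, 58.0 and 62.3 CPM in the ad libitum libraries and 80.1, 77.0 and 77.5 CPM in the fasting libraries. Again all 3 fasting libraries lay above all 3 ad libitum libraries, and the SDs were small beside the gap, at 2.18 and 1.65 CPM. The log2 fold change was 0.38 (SE 0.05, 95% interval 0.26 to 0.50, edgeR adjusted p = 0.0422), with a range of 0.35 to 0.41 when single libraries were left out. The call held without ad libitum replicate 1 and was lost without each other library, with edgeR adjusted p from 0.0653 without ad libitum replicate 2 to 0.287 without fasting replicate 3. Slc3a2, the heavy chain that pairs with LAT1, was at 93.1 ± 2.14 CPM ad libitum and 102 ± 4.15 CPM under fasting and was not called (log2 fold change 0.14, edgeR adjusted p = 0.209); it was picked for this pairing after its value was seen.

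Slc2a1 (ENSMUSG00000028645), the glucose carrier GLUT1, measured 118, 122 and 113 CPM in the ad libitum libraries and 141, 136 and 139 CPM in the fasting libraries. The diets did not overlap here either. The log2 fold change was 0.24 (SE 0.05, 95% interval 0.11 to 0.36), and the gene did not pass with edgeR (adjusted p = 0.0815) but did with DESeq2 (adjusted p = 0.00476). In all, 3 of 3 transporters were higher with no overlap between diets, where 12.5% of all genes tested were.

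Of the receptors, Tek (ENSMUSG00000006386), also known as Tie2, measured 20.2, 16.6 and 16.7 CPM in the ad libitum libraries and 11.6, 12.3 and 12.6 CPM in the fasting libraries. Ad libitum replicate 1 was the highest library, and without it the log2 fold change was -0.45 instead of -0.55 (SE 0.10, 95% interval -0.78 to -0.32). The edgeR adjusted p was 0.0627 over all libraries, 0.0305 without ad libitum replicate 1, and 0.0706 to 0.290 when any other single library was left out. Kdr (ENSMUSG00000062960), which encodes VEGF receptor 2, measured 13.8, 12.7 and 14.4 CPM in the ad libitum libraries and 9.05, 9.66 and 10.4 CPM in the fasting libraries. Its log2 fold change was -0.49 (SE 0.09, 95% interval -0.70 to -0.28, edgeR adjusted p = 0.0638), and the edgeR adjusted p was 0.0435 without ad libitum replicate 1 and 0.0689 to 0.287 without any other single library. Both receptors had no overlap between diets and both passed with DESeq2 (adjusted p = 0.00063 for Tek and 0.00144 for Kdr).

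Flt1 (ENSMUSG00000029648), VEGF receptor 1, which acts largely as a decoy that holds the growth factor away from Kdr, had the highest level of the 3 receptors per kilobase of exon. It measured 91.7, 89.6 and 75.0 CPM in the ad libitum libraries and 73.5, 66.9 and 75.2 CPM in the fasting libraries. Ad libitum replicate 3 lay within the fasting range, so the diets overlapped. The log2 fold change was -0.25 (SE 0.09, edgeR adjusted p = 0.188), and Flt1 passed neither with edgeR nor with DESeq2.

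The junction and adhesion genes gave mixed values. Cdh5 (ENSMUSG00000031871), VE-cadherin of the adherens junctions, measured 18.4, 17.4 and 15.9 CPM in the ad libitum libraries and 12.6, 11.8 and 13.5 CPM in the fasting libraries. It had no overlap between diets, with a log2 fold change of -0.45 (SE 0.09, 95% interval -0.65 to -0.25), and passed with DESeq2 (adjusted p = 0.00293) but not with edgeR (adjusted p = 0.0685). In total 3 of the 7 receptor and junction genes were lower with no overlap, where 15.0% of all genes tested were.

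Cldn5 (ENSMUSG00000041378), claudin-5, the main sealing protein of the barrier's tight junctions, measured 25.9, 25.0 and 21.3 CPM in the ad libitum libraries and 21.7, 22.2 and 20.3 CPM in the fasting libraries. Ad libitum replicate 3 lay inside the fasting range, and the 95% interval of the log2 fold change, -0.38 to 0.04, included 0 (edgeR adjusted p = 0.336). Pecam1 (ENSMUSG00000020717), an adhesion molecule between endothelial cells, measured 26.3, 22.9 and 21.8 CPM and then 22.6, 20.7 and 23.2 CPM, with an interval of -0.30 to 0.11 (edgeR adjusted p = 0.580). Ocln (ENSMUSG00000021638), occludin of the tight junctions, measured 8.93, 8.53 and 7.42 CPM and then 8.60, 8.14 and 10.2 CPM. It was the only one of these 7 genes with a log2 fold change above 0, at 0.12 (95% interval -0.17 to 0.40, edgeR adjusted p = 0.635). For these 3 genes a difference could not be told from the spread between libraries.

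**Figure D2:**
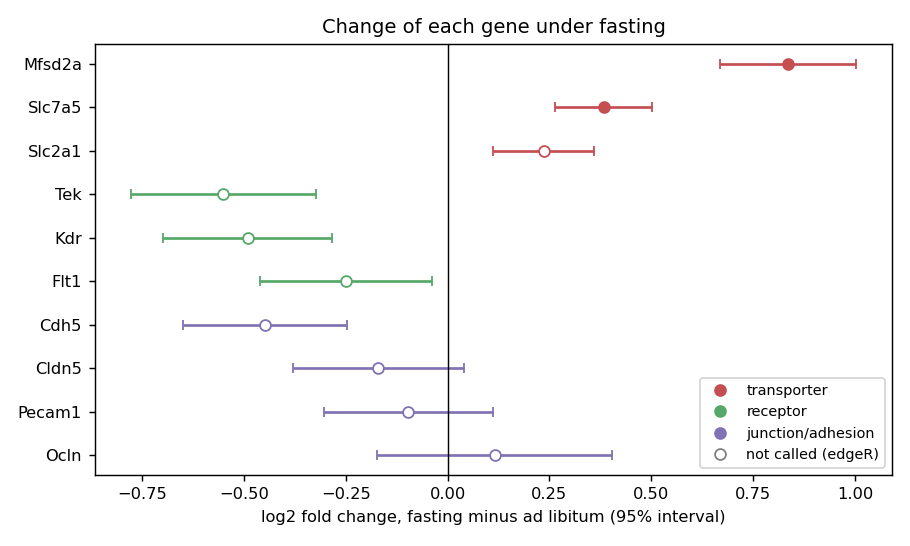
Log2 fold change of each gene, fasting minus ad libitum, with its approximate 95% interval; filled points were called by edgeR over all genes and open points were not. All 3 transporters lie to the right of 0, from 0.24 to 0.84, and the 3 receptors and Cdh5 to the left, from -0.55 to -0.25, while the intervals of Cldn5, Pecam1 and Ocln include 0.

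Set side by side, the transporters had a median log2 fold change of 0.38 and the 7 receptor and junction genes one of -0.25; the receptors alone were at -0.49 and the junction genes at -0.13, and the median over all genes tested was -0.005. The gap between the roles was also taken inside each library, where it does not depend on the scaling between libraries. The mean log2 CPM of the 3 transporters exceeded that of the 7 other genes by 1.15, 1.25 and 1.32 in ad libitum replicates 1, 2 and 3, and by 2.04, 2.00 and 1.94 in fasting replicates 1, 2 and 3. The gap was thus 0.75 wider under fasting (1.24 ± 0.085 against 1.99 ± 0.048, SD, n = 3), and between 0.71 and 0.79 when single libraries were left out. The genes were grouped with earlier results of these data known, so no test was made of this gap.

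**Figure D3:**
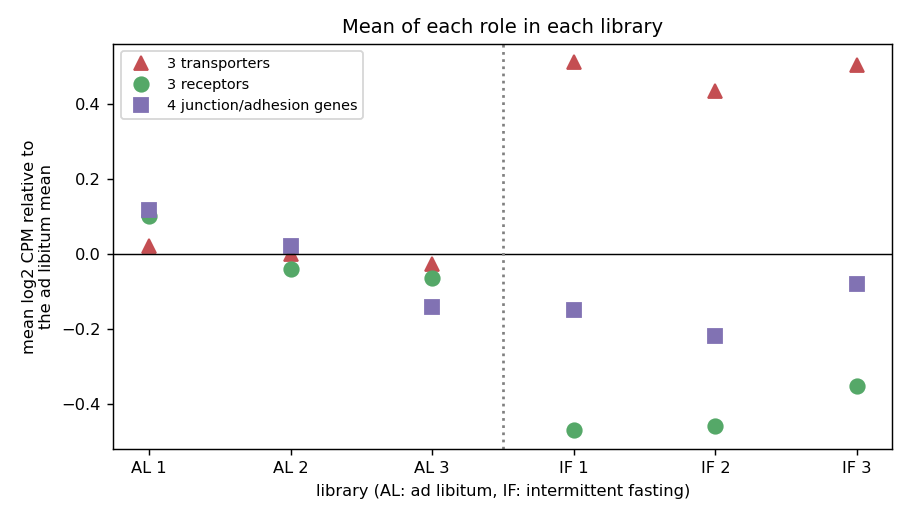
Mean log2 CPM of the genes of each role in each library, relative to the mean of the 3 ad libitum libraries; triangles are the transporters, circles the receptors and squares the junction and adhesion genes. Under fasting the transporter means lie between 0.44 and 0.51 and the receptor means between -0.47 and -0.35, while junction means of -0.22 to -0.08 overlap with ad libitum replicate 3 at -0.14.

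Levels of different genes were compared per kilobase of merged exons (GENCODE M21), as CPM per kb. Merged exons pool all annotated transcripts of a gene, 13504 bases from 6 transcripts for Flt1 and 2250 bases from 4 for Mfsd2a. A single transcript can be shorter, so the order of genes can depend on this choice of length. Ad libitum, Slc2a1 stood highest at 33.6 ± 1.21 CPM per kb, followed by Cldn5 at 17.0 ± 1.75 and Slc7a5 at 16.2 ± 0.589, whose libraries overlapped. Mfsd2a at 7.47 ± 0.390 and Flt1 at 6.33 ± 0.674 came next. Cdh5, Pecam1 and Tek, at 4.10, 3.80 and 3.78 CPM per kb, overlapped with each other, and Ocln and Kdr were lowest at 1.96 and 1.51. Under fasting Slc7a5, at 21.1 ± 0.445 CPM per kb, was above Cldn5, at 15.1 ± 0.711, in every library, and Mfsd2a at 13.3 ± 0.747 was 2.51 times Flt1, against 1.18 times ad libitum.

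Other genes of the barrier were taken from lists by role, 82 genes in all that were measured, and edgeR called 0 of them. At an unadjusted p below 0.05, 24 of the 82 passed with edgeR, where 20.4% of all genes tested did, and DESeq2 called 3 higher and 10 lower, 3.66% and 12.2% of them against the 2.90% and 4.51% of all genes given above. Their median log2 fold change was -0.10, and 56 of 82 were below 0, against 50.9% of all genes. Diets did not overlap in 26 lower genes (31.7%, against 15.0% of all) and in 5 higher ones (6.10%, against 12.5%).

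Of the other 16 transporters, 6 were above 0 and 10 below, with a median of -0.09. Slc16a1, which carries lactate and ketone bodies, was at 60.7 ± 5.21 CPM ad libitum and 46.3 ± 1.73 CPM under fasting (log2 fold change -0.39, edgeR adjusted p = 0.0675), and the glutamine carrier gene Slc38a3 was at -0.25 (edgeR adjusted p = 0.0685). The 3 that DESeq2 called higher were the organic anion carrier gene Slco1a4 (log2 fold change 0.28), the cationic amino acid carrier gene Slc7a1 (0.28) and Tfrc (0.29), the transferrin receptor gene that serves iron uptake; they are named for that call. DESeq2 also called 3 lower, Slc16a1 and Slc38a3 above and a second glutamine carrier gene, Slc38a5 (log2 fold change -1.44, DESeq2 adjusted p = 0.0314, edgeR adjusted p = 0.153). Abcb1a and Abcg2, drug efflux pumps of the barrier, were at -0.07 and -0.03 and were chosen as background carriers after their values were seen.

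Among 17 other receptors and ligands the median was -0.16, with 12 below 0. S1pr1, a sphingosine receptor that supports junctions and is also made by astrocytes, was at 143 ± 10.6 and 110 ± 3.93 CPM (log2 fold change -0.38, edgeR adjusted p = 0.0640). Vegfa, the ligand of Kdr and Flt1, measured 78.6, 69.4 and 70.3 CPM in the ad libitum libraries and 52.9, 58.4 and 57.0 CPM in the fasting libraries (log2 fold change -0.38, edgeR adjusted p = 0.0663). The ligand and both of its receptors thus had log2 fold changes below 0, as did 50.9% of all genes tested. EdgeR called neither Vegfa nor Kdr nor Flt1, and Flt1 overlapped between diets. Of 12 other junction genes 7 were below 0, among them the scaffold gene Tjp1 (log2 fold change -0.24, edgeR adjusted p = 0.0962).

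In the list of Wnt signalling genes that induce and keep the barrier, 11 of 15 were below 0 with a median of -0.10, and those of smallest p were Lrp6 (-0.20) and Foxf2 (0.29), with edgeR adjusted p of 0.167 and 0.242. Of 5 genes of vesicle transport and leakiness, 3 were above 0 and 2 below, with a median of 0.09. Cav1, the coat protein of caveolae, was at 16.2 ± 0.948 and 11.3 ± 0.947 CPM (log2 fold change -0.52, edgeR adjusted p = 0.0610). Mal, which oligodendrocytes also make in quantity, was the other gene below 0, at -0.41 (edgeR adjusted p = 0.261). Mfsd2a protein is known for holding down the vesicle route of caveolae, and a link to these genes was not tested. Of 5 leukocyte adhesion genes 3 were measured, all below 0, with Icam1 at -0.29 and Vcam1 at -0.05 (edgeR adjusted p = 0.331 and 0.764).

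The tissue held endothelial RNA in every library. All 15 endothelial identity genes were measured, and their summed level was 491 to 540 CPM ad libitum and 471 to 491 CPM under fasting. Most of that sum was Bsg, which many cell types make, at 325 to 342 CPM ad libitum and 308 to 318 CPM under fasting; the other 14 summed to 165 to 210 CPM and 159 to 173 CPM. The median of all 15 was -0.10, with 11 of 15 below 0. The stem and endothelial antigen gene Cd34 was at 21.9 ± 2.10 and 15.7 ± 0.337 CPM (log2 fold change -0.48, edgeR adjusted p = 0.0599), and Emcn at -0.46 (edgeR adjusted p = 0.0896).

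Markers of 9 other cell types, 61 measured genes, were read beside these values. EdgeR called 0 of them. With edgeR 25 had an unadjusted p below 0.05, which is 41% of the markers against 20.4% of all genes tested. DESeq2 called 19, all lower, which is 31.1% of the markers against 4.51% of all genes tested. Pericyte and smooth muscle markers were below 0 in 10 of 11 genes (median -0.14), with summed levels of 264 to 292 CPM ad libitum and 223 to 243 CPM under fasting; Anpep was at -0.78 and Cspg4 at -0.27. All 7 microglial markers and all 6 oligodendrocyte markers were below 0, with medians of -0.61 and -0.53, summed microglial levels of 303 to 426 CPM against 247 to 251 CPM, and summed oligodendrocyte levels of 13352 to 18182 CPM against 9434 to 11839 CPM. Astrocyte markers were below 0 in 6 of 7 (median -0.34), at 2862 to 3803 CPM against 2527 to 2813 CPM, and neuronal markers were above 0 in 5 of 6 (median 0.12), at 4308 to 5623 CPM against 5117 to 5431 CPM. Choroid plexus markers, 7 of 8 below 0, ranged from 25.9 to 107 CPM ad libitum and from 24.0 to 38.6 CPM under fasting, and erythroid markers, all 5 below 0, from 430 to 1736 CPM and from 254 to 657 CPM. Fibroblast markers, 5 of 7 below 0, were at 114 to 154 CPM and 121 to 122 CPM, and dopamine neuron markers, all 4 below 0, at 528 to 1404 CPM and 462 to 965 CPM. Of the markers named for a small p within their own list, those with an unadjusted edgeR p below 0.05 were Aqp4 (-1.01) and S100b (-0.44) of astrocytes, Csf1r (-0.60) of microglia, Mag (-0.72) and Mog (-0.50) of oligodendrocytes, Stmn2 (0.23) of neurons, and Col1a1 (-0.55) and Slc6a13 (-0.50) of fibroblasts. The other markers named by that rule had an unadjusted edgeR p of 0.0975 to 0.577: Syt1 (0.22) of neurons, Ttr (-1.50) and Sostdc1 (-0.74) of choroid plexus, Hbb-bt (-1.32) and Hba-a1 (-1.13) of red cells, and Slc6a3 (-0.50) and Slc18a2 (-0.31) of dopamine neurons. Every gene in the count table had at least 60 counts summed over the 6 libraries, so no measured marker could be at 0 in all of them. The part of these cells in the members' values was not tested.

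**Figure D4:**
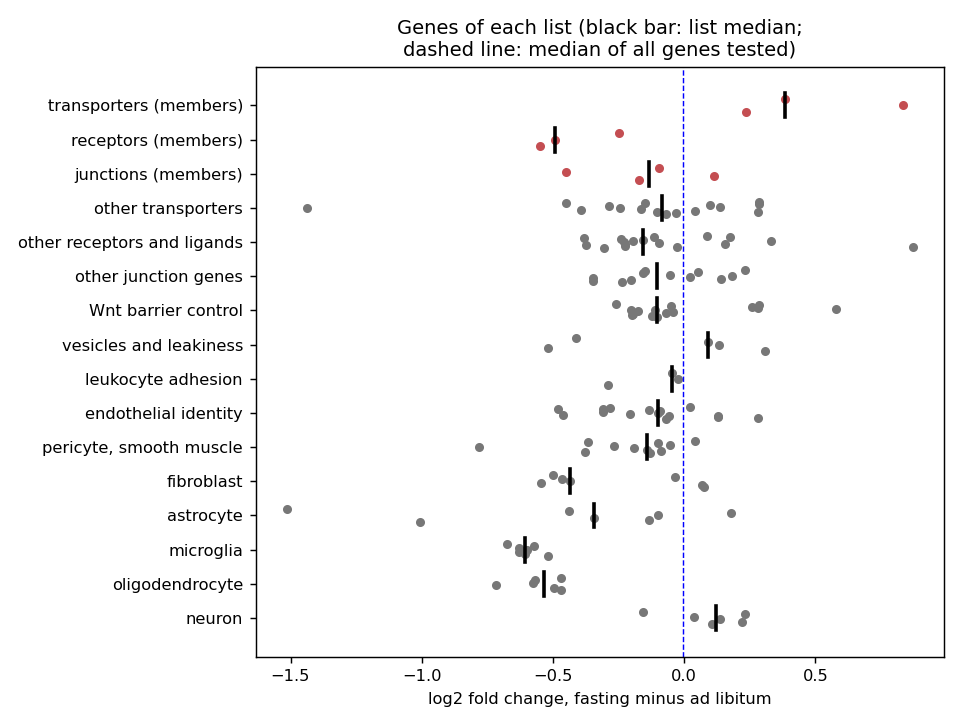
Log2 fold change, fasting minus ad libitum, of each gene in the member lists (top 3 rows) and in lists of other barrier genes and other cell types; black bars are list medians and the dashed line is the median of all genes tested. The 3 member transporters lie above 0 with a median of 0.38, while the other transporters centre at -0.09 and microglial and oligodendrocyte markers at -0.61 and -0.53.

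Across the 6 libraries, the genes whose log2 CPM followed the mean standardised level of the 3 transporters most closely, out of 12171 genes with a mean of at least 5 CPM, were Pcyox1, Nisch, Rere, Smad2 and Tro (Pearson r of 0.999 to 0.995). All 5 had higher levels in every fasting library than in any ad libitum library; Pcyox1 measured 116, 117 and 115 CPM in the ad libitum libraries and 146, 139 and 144 CPM in the fasting libraries. For the 7 receptor and junction genes the closest were Ptprb, Kmt2d, Gtf3c2, Rnf10 and Epas1 (r of 0.997 to 0.982). Ptprb measured 66.8, 60.5 and 54.4 CPM in the ad libitum libraries and 51.6, 49.7 and 54.2 CPM in the fasting libraries. Ad libitum replicate 1 was the highest and replicate 3 the lowest of its group, as for Cldn5, Cdh5, Pecam1, Flt1 and Ocln. The transporter Mfsd2a had the same ad libitum order. These r values are a description over 6 libraries in 2 diets, drawn from many genes.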

How the data were processed

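Polyadenylated RNA of the substantia nigra was sequenced in 6 libraries, prepared with the NEBNext Ultra II Directional kit per the labels' protocols. The authors deposited estimated counts per gene as whole numbers that are not scaled between libraries; Salmon and DESeq2 1.40.2 with GRCm39 (mm39) were used, per the submitters' processing notes, with roles, annotation release and strand setting not given in the sources used here. Rounding changed 0 values, and 0 columns were left unused.

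Genes were filtered with filterByExpr, scaled by TMM and compared between diets, fasting minus ad libitum, with edgeR 4.0.16 (R 4.3.3), by the quasi-likelihood test with robust shrinkage, no covariate and Benjamini-Hochberg adjustment over the 19109 genes tested. Standard errors are the log2 fold change over the square root of F, and 95% intervals use 7.04 degrees of freedom. Log2 CPM used a prior count of 2. Alternatives were DESeq2 1.42.0, limma-voom (limma 3.58.1), other scalings and filters, a replicate block and leaving out each library. The fits were tested on simulated counts.

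The members and lists were chosen with earlier results of these data known. All members are named, plus called genes of each list or its 2 of smallest p, and the 5 genes nearest each of 2 patterns; others were chosen after their values were seen. Some genes that this rule names are not reported here.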

Additional observations from a re-analysis of the deposited data

How the results depend on the processing

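All 10 members kept the direction of their change in all 14 alternatives, and the medians of both groups and the gap between roles within a library moved by less than 1 SD between replicates. The calls did not hold as firmly. DESeq2 called 6 members, 3 higher and 3 lower, of 1395 genes in all; the fit without robust shrinkage called 1 member (Mfsd2a, with Slc7a5 at an edgeR adjusted p of 0.0503) of 9 genes. Leaving out single libraries gave 0 to 4 called members and 0 to 1187 called genes. The most came without ad libitum replicate 1, and 0 members were called without ad libitum replicate 3 (1 gene), fasting replicate 1 (0 genes) or fasting replicate 3 (0 genes), where 8, 6 and 7 members had an unadjusted p below 0.05, against 16.7%, 12.8% and 13.0% of all genes. With edgeR over all libraries 7 did, against 20.4% of all genes. The cause was not tested. Other scalings moved the median of all genes by less than 0.01 on the log2 scale.

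Replicate numbers are shared by both diets. Same-numbered libraries deviated together only for number 1 (correlations of 0.21, -0.04 and -0.11), which was the highest value of all pairs. Differently numbered pairs ran from -0.14 to 0.19, the highest being ad libitum 2 with fasting 3 (0.19) and ad libitum 3 with fasting 2 (0.15). With 3 libraries per diet, these values cannot tell whether the numbers mark a pairing. With the replicate block the same 2 members were called of 285 genes in all, against 95 genes without it. Depth was similar in all libraries.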

Other observations

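Barrier-related genes outside the 10 members gave a few values that were chosen after they were seen. Slc38a5, an amino acid carrier gene, was low and uneven, with 2.46, 3.94 and 1.07 CPM in the ad libitum libraries and 1.001, 0.855 and 0.896 CPM in the fasting libraries (log2 fold change -1.44, edgeR adjusted p = 0.153). Angpt2, the angiopoietin that opposes Tek signalling in many settings, measured 3.60, 1.12 and 1.37 CPM in the ad libitum libraries and 4.53, 2.17 and 4.44 CPM in the fasting libraries, with overlap between diets (log2 fold change 0.87, edgeR adjusted p = 0.405). Plvap, a gene of fenestrated and leaky vessels, was at 6.80, 6.98 and 7.59 CPM and at 7.14, 10.1 and 9.23 CPM, also with overlap (edgeR adjusted p = 0.276). Rgs5, the most abundant of the pericyte and smooth muscle markers, measured 137, 127 and 108 CPM in the ad libitum libraries and 89.9, 97.1 and 98.9 CPM in the fasting libraries (log2 fold change -0.38, edgeR adjusted p = 0.0981).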
